A study of Mus musculus with 12 samples.

Results

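The serpins measured here were the 56 genes whose array symbol was Serpin followed by a clade letter from a to i and a number, out of 34509 symbols on the bead arrays. They were carried by 69 of 46632 probes. RNA came from femoral head cartilage of 21-day-old TS-4/5∆cat mice, in which the exons coding for the catalytic domains of Adamts4 and Adamts5 are deleted, and every array, controls included, carried both deletions. No wildtype cartilage was on the arrays, so all values describe this double mutant. Explants, 4 hips to a well, were left untreated or exposed for 3 days to 10 ng/ml IL-1α, an inflammatory cytokine, or to 10 µM retinoic acid, the vitamin A derivative. Each treatment had 4 arrays, with 2 in batch 1 from the line named Donut and 2 in batch 2 from the line named Gertrude, so batch and mouse line cannot be told apart. The methods name 3 unpooled mice per treatment, fewer than the 4 arrays, while the labels put 4 hips in a well, and arrays are not tied to animals. Arrays of a treatment may therefore share animals, p-values measure the spread between arrays, which may be technical in part, and they may be too small.

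Serpins share a fold with an exposed loop that serves as bait for a protease. When an inhibitory serpin is cut there, it changes shape and traps the enzyme in a covalent complex, so each molecule works once. Some members have lost this function and act instead as chaperones or signalling proteins. In cartilage the family is of interest because its targets, among them plasmin, thrombin, complement proteases and leukocyte elastase, act on the matrix or activate enzymes that do.

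Of the 56 serpins, 16 were detected on at least 4 of the 12 arrays and were tested, 6 were detected on 1 to 3 arrays, and 34 were undetected on all 12 arrays with every probe. Genes were counted by array symbol. The undetected symbol Serpinb6 of clade B is a synonym of the detected Serpinb6a in RefSeq, so that gene was counted under both. Detection here means a detection p under 0.05 against the background of the array. Of the tested genes, 8 were detected on all 12 arrays. The number of serpin genes detected on an array lay between 11 and 18. A gene detected with a single treatment can pass a filter of 4 arrays, and such a gene had to differ between treatments, so the counts below describe the tested genes and not the family.

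Clade A, the largely secreted serpins related to α1-antitrypsin, had 20 genes with 6 tested. Clade B, the intracellular serpins, had 26 genes with 5 tested and 20 undetected on every array. In clade E, Serpine2 was tested. Clade F had Serpinf1 tested and Serpinf2 detected on 2 arrays. Serping1 and Serpinh1, alone in clades G and H, were each detected on all 12 arrays, and Serpini1 was tested of 2 genes in clade I. Serpinc1, antithrombin and the only gene of clade C, was undetected on all 12 arrays, and Serpind1, heparin cofactor II and the only gene of clade D, was detected on 3.

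**Figure D1:**
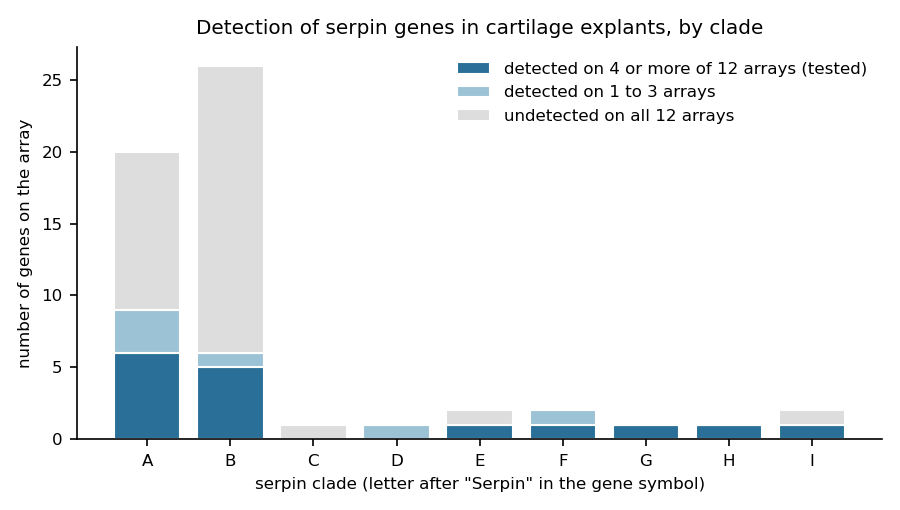
Number of serpin genes on the array (y axis) by clade (x axis), split by detection. Of 56 genes, 16 were detected on 4 or more of the 12 arrays and tested, 6 on 1 to 3 arrays, and 34 on none, of which 20 belonged to clade B.

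The labelled tissue was borne out by its markers, with Col2a1, Acan, Sox9 and Comp each detected on all 12 arrays. The chondrocyte list was lower with both treatments. With retinoic acid all 8 tested chondrocyte genes of 10 were lower than in untreated explants, and with IL-1α 6 of 8 were lower. Across all tested genes 18.1% and 15% were lower. Matn3 was undetected. The summed intensity of the list was 62424 to 73136 on untreated arrays, 35213 to 46623 with IL-1α and 10055 to 15260 with retinoic acid. Fewer chondrocytes and less RNA per chondrocyte cannot be told apart in bulk tissue.

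Markers of other cell types were present as well. Their counts stand beside 18.6% of all genes higher and 18.1% lower with retinoic acid, and 15.1% and 15% with IL-1α. Of 8 macrophage genes 5 were tested, 3 were higher with retinoic acid, and with IL-1α 2 were higher and 2 lower. Their summed intensity was 1585 to 2821 on untreated arrays, 3714 to 6557 with IL-1α and 2415 to 4467 with retinoic acid, with Cd163 undetected. Of 7 tested neutrophil genes 4 were lower with retinoic acid and 0 were called with IL-1α by limma, where 1 had an unadjusted p under 0.05. The neutrophil sum with retinoic acid was 5645 to 5678 in batch 1, against 13513 to 15869 untreated, but was 14500 to 15362 in batch 2, against 9883 to 11701 untreated. All 4 tested osteoblast genes were lower with both treatments, with sums of 10363 to 12489 untreated, 2814 to 4647 with IL-1α and 3644 to 4566 with retinoic acid. Of 8 endothelial genes 1 was lower with retinoic acid and 4 with IL-1α, where the sums were 1095 to 1646 against 2384 to 3096 untreated. Of 8 mast cell genes 6 were undetected and Kit alone was tested. Of 3 tested megakaryocyte genes 1 was higher and 1 lower with retinoic acid and 2 were lower with IL-1α. Of 4 tested erythroid genes limma called 0 against untreated explants with either treatment, and 0 had an unadjusted p under 0.05. The erythroid sums were 21641 to 27754 untreated, 24816 to 34044 with IL-1α and 18859 to 31862 with retinoic acid. On the retinoic acid arrays they were above the chondrocyte sums. The part of these cell types in the serpin results was not tested.

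Retinoic acid changed 7 of the 16 tested serpins relative to untreated explants, 1 upward and 6 downward. Across all 14317 genes tested, 36.7% were called, with 18.6% higher and 18.1% lower. Serping1 rose, while Serpina1b, Serpina1d, Serpina3g, Serpina3n, Serpinf1 and Serpinh1 fell. The median difference of the 16 serpins was −0.16 on the log2 scale, where 1 is a 2-fold change, against 0.01 for all genes. Changes above 2-fold were called for 3 serpins, Serpina1b, Serpina1d and Serpina3n, against 9.76% of all genes.

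IL-1α changed 8 of the 16, with Serpina3f, Serpinb2 and Serping1 higher and Serpina1b, Serpina1d, Serpina3n, Serpinf1 and Serpinh1 lower. Of all genes 30.2% were called, 15.1% higher and 15% lower. The median difference was 0.02 for the serpins and 0.01 for all genes. Changes above 2-fold were called for 5 serpins, against 5.32% of all genes. With each array scaled to the same median in place of quantile normalisation, 3 serpins were higher and 3 lower. The share of all genes called under that scaling was not computed.

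Between the treatments, retinoic acid against IL-1α, 7 serpins were called, of which Serpinf1 was higher with retinoic acid and Serpina1b, Serpina1d, Serpina3g, Serpina3n, Serpinb13 and Serpinb2 were lower. Of all genes 32.5% were called, 16.1% higher and 16.4% lower. The median difference was −0.29 for the serpins and −0.03 for all genes. Serpinb2 and Serpina3n were called above 2-fold, against 8.92% of all genes. With median scaling 1 serpin was higher and 2 lower, again without a share of all genes to set beside it. With neither batch nor replicate in the model, the calls that held were Serpina1b, Serpina1d, Serpina3n and Serpinf1 for retinoic acid, Serpinb2 and Serpinf1 for IL-1α, and Serpinb2 between the treatments. The 3 comparisons share arrays, and their values are given side by side for each gene below.

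**Figure D2:**
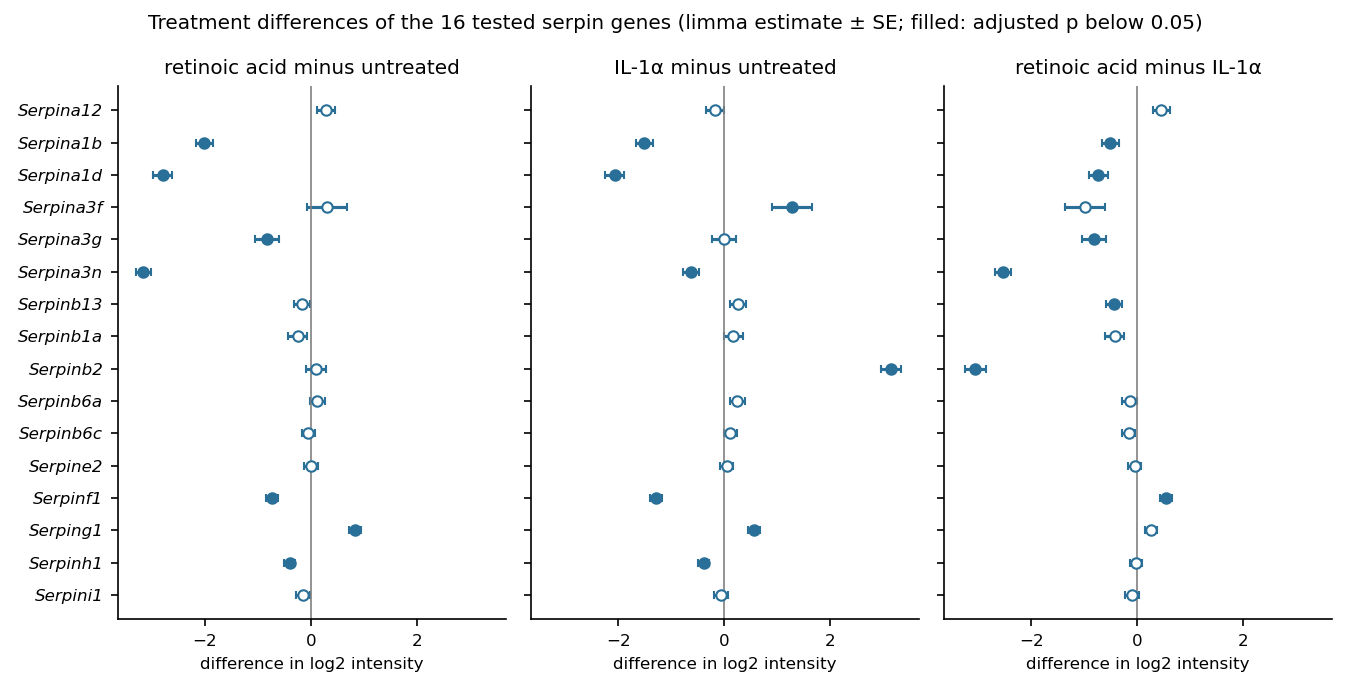
Difference in log2 intensity (x axis) for each tested serpin (y axis) in the 3 comparisons, with the limma estimate as a point and its SE as a bar (4 arrays per treatment). Filled points are called at an adjusted p under 0.05, with Serpina3n lowest for retinoic acid against untreated at −3.17 and Serpinb2 highest for IL-1α against untreated at 3.15.

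The α1-antitrypsin genes of clade A fell with both treatments. α1-Antitrypsin is the main plasma inhibitor of neutrophil elastase, made chiefly by liver, and the mouse carries several near-identical copies of its gene. Serpina1b was at 9.16 and 9.15 in batch 1 and 10.31 and 9.63 in batch 2 on untreated arrays, as normalised log2 intensity. With IL-1α it was at 7.60 and 7.34 in batch 1 and 8.55 and 8.74 in batch 2. With retinoic acid it was at 6.89 and 6.95 in batch 1 and 8.06 and 8.31 in batch 2. Every treated array was below every untreated one, while the IL-1α and retinoic acid arrays overlapped.

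Serpina1b was 4.04-fold lower with retinoic acid than untreated, a log2 difference of −2.01 ± 0.16 (SE, limma adjusted p = 7.25e-07). It was 2.84-fold lower with IL-1α, at −1.51 ± 0.16 (adjusted p = 2.51e-05). In exact permutation tests of 4 arrays against 4, which ignored batch, both gave p = 0.0286, the smallest such a test can give. The difference between retinoic acid and IL-1α was −0.51 ± 0.16 (adjusted p = 0.0305). Both other tested Serpina1b probes fell with both treatments, with log2 differences of −2.51 and −1.99 for retinoic acid and −1.81 and −1.39 for IL-1α.

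Serpina1d had untreated values of 7.71 and 8.07 in batch 1 and 9.01 and 9.33 in batch 2. IL-1α arrays gave 5.51 and 5.84 in batch 1 and 7.28 and 7.23 in batch 2. Retinoic acid arrays gave 6.76 and 6.89 in batch 2, while both batch 1 arrays were not above background, with signals of 4.72 and 4.56. As for Serpina1b, all treated arrays lay below all untreated arrays. The log2 difference from untreated was −2.80 ± 0.18 with retinoic acid (adjusted p = 9.03e-08) and −2.06 ± 0.18 with IL-1α (adjusted p = 3.38e-06). Within batch 1 the fall with retinoic acid was at least 5.81-fold, since the treated signal there is only a bound. Retinoic acid was below IL-1α by a log2 difference of −0.73 ± 0.18 (adjusted p = 0.00661). With median scaling this difference was −0.37 and that of Serpina1b −0.39, and neither was called (adjusted p = 0.143 and 0.215).

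Serpina1a, another copy, was detected on both untreated arrays of batch 2, at 6.65 and 5.97, and on 1 retinoic acid array. Serpina1e, Serpina1f and the probe named Serpina1 were undetected on all 12 arrays. Probe sequences were not used here, so how far Serpina1b and Serpina1d probes bind transcripts of the other copies is uncertain, and the copies cannot be counted as independent results.

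Serpina1b and Serpina1d lie near each other on chromosome 12, with Gm17042 between them in RefSeq's order of genes and pseudogenes. Their upstream sequences are shown because both genes fell together. RefSeq promoter windows of build GRCm38.p6 were found for 46 of the 56 serpins and for 13 of the 16 tested. The 250 bases before the listed start are printed 5′ to 3′ in the direction of transcription, at chr12:103738190-103738439 and chr12:103773634-103773883, both on the minus strand. Capitals mark TGANTCA, the core of the AP-1 motif, where N is any base.
Serpina1b: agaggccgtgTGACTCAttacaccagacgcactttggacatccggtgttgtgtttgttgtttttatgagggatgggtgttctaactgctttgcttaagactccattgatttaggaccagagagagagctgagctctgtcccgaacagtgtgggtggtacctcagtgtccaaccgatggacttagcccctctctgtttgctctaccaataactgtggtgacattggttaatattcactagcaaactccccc
Serpina1d: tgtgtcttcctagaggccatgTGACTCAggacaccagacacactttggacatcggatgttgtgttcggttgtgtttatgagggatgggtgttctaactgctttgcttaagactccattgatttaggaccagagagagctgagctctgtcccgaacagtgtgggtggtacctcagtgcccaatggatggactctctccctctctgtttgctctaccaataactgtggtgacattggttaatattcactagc
When aligned, 223 of 238 paired bases were identical, or 93.7%, with 24 gap positions. The AP-1 letters stood at 240 to 234 bases before the start in Serpina1b and at 229 to 223 in Serpina1d. On either strand, TGANTCA was in 6.75% of the 32851 windows of this length in the table. Neither sequence held TTCNNNGAA (the STAT core), GGNNTTTCC (an NF-κB pattern), AGGTCA (a retinoid receptor half-site) or, on the transcribed direction, TATAAA.

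Serpina3n had the largest fall of the tested serpins with retinoic acid. It belongs to the α1-antichymotrypsin group, whose members inhibit cathepsin G, granzyme B or related proteases, and is known as an acute phase gene. Untreated arrays stood at 10.92 and 11.11 in batch 1 and at 12.96 and 13.04 in batch 2. IL-1α arrays stood at 10.14 and 10.00 in batch 1 and at 12.70 and 12.67 in batch 2. Retinoic acid arrays stood at 7.58 and 7.54 in batch 1 and at 10.13 and 10.11 in batch 2. Retinoic acid values lay below all untreated values, and within each batch below all IL-1α values.

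The fall of Serpina3n with retinoic acid was 8.98-fold, a log2 difference of −3.17 ± 0.15 (adjusted p = 4.76e-09). It was −3.45 in batch 1 and −2.88 in batch 2. IL-1α gave −0.63 ± 0.15 (adjusted p = 0.00614), with −0.95 in batch 1 and −0.31 in batch 2, and arrays of the treatments overlapped across batches. This second call was lost with median scaling (−0.54, adjusted p = 0.0681) and with batch 2 alone. Retinoic acid was 5.81-fold below IL-1α (−2.54 ± 0.15, adjusted p = 3.24e-08).

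Serpina3g and Serpina3f are neighbours of the same chromosome 12 cluster, with Gm8918 between them in RefSeq's order of genes and pseudogenes. Serpina3g encodes an intracellular serpin that also inhibits cysteine cathepsins. Its untreated arrays gave 7.82 and 7.87 in batch 1 and 7.08 and 7.05 in batch 2. With IL-1α it was higher in batch 1, at 8.49 and 8.50, and lower in batch 2, at 6.44 and 6.37. With retinoic acid it was lower in both, at 7.26 and 6.98 in batch 1 and 6.26 and 5.99 in batch 2.

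For retinoic acid the difference of Serpina3g from untreated was −0.83 ± 0.23 (adjusted p = 0.0113). With median scaling it was −0.70 (adjusted p = 0.117). Without untreated replicate 2 of batch 2 it was −0.68 (adjusted p = 0.0586). For IL-1α the difference over both batches was −0.01 ± 0.23 (adjusted p = 0.983), made of 0.65 in batch 1 and −0.66 in batch 2. The test of that difference between batches gave −1.31 (limma adjusted p = 0.00347). Retinoic acid was below IL-1α by −0.82 ± 0.23 (adjusted p = 0.0133), with −1.37 in batch 1 and −0.28 in batch 2, and this difference also differed between batches (1.09, adjusted p = 0.0053). The call of retinoic acid against IL-1α was lost without IL-1α replicate 1 (−0.64) or 2 (−0.60) or retinoic acid replicate 2 (−0.70) of batch 1, and with median scaling (−0.76, adjusted p = 0.106).

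Serpina3f was not above background on any untreated array, with signals of 4.82 and 4.64 in batch 1 and 4.98 and 4.82 in batch 2. With IL-1α it reached 7.18 and 7.16 in batch 1 but only 5.14 and 4.92 in batch 2, where 1 array of 2 detected it. With retinoic acid it was at 5.08 and 5.13 in batch 1, undetected, and at 5.08 and 5.16 in batch 2. The rise with IL-1α was thus carried by batch 1, where it was at least 3.70-fold.

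Over both batches Serpina3f was 1.97-fold higher with IL-1α when untreated signals were raised to the lowest detected signal. That fold is not a strict bound, since 1 IL-1α array of batch 2 was itself undetected. The fitted difference with IL-1α was 1.28 ± 0.38 (limma adjusted p = 0.0222). The batches differed in this response by −2.32 (adjusted p = 1.57e-05), and the gap from IL-1α to retinoic acid differed by 2.16 (adjusted p = 1.75e-05). The call over both batches was lost without any 1 of the untreated replicates 1 (1.13) and 2 (1.06) or the IL-1α replicates 1 (0.93) and 2 (0.92) of batch 1. On the IL-1α arrays of batch 1, where Serpina3f and Serpina3g were highest, the macrophage sum was 6497 to 6557. It was 3714 to 4257 with IL-1α in batch 2. The sum was also higher in batch 1 with the other treatments. Untreated arrays gave 2227 to 2821 in batch 1 and 1585 to 1898 in batch 2. Retinoic acid arrays gave 4410 to 4467 in batch 1 and 2415 to 3125 in batch 2. The part of this sum in the differences of Serpina3f and Serpina3g was not tested. Of the 5 tested macrophage genes, 2 were higher and 2 lower with IL-1α over both batches.

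Upstream sequences of the 3 tested Serpina3 genes are given because their responses differed. They are on the plus strand of GRCm38.p6 at chr12:104406458-104406707, chr12:104214294-104214543 and chr12:104235897-104236146, again 250 bases before the first listed start. Capitals mark TTCNNNGAA or GGNNTTTCC.
Serpina3n: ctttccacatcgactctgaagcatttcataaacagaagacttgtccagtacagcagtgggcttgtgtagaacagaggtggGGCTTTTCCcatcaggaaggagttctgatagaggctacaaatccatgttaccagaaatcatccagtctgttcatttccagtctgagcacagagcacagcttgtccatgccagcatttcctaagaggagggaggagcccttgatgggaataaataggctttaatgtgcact
Serpina3f: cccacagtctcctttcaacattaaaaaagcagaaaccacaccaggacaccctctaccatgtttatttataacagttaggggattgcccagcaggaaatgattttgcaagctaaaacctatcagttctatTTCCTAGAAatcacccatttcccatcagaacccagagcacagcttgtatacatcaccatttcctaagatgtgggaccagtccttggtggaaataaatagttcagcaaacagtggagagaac
Serpina3g: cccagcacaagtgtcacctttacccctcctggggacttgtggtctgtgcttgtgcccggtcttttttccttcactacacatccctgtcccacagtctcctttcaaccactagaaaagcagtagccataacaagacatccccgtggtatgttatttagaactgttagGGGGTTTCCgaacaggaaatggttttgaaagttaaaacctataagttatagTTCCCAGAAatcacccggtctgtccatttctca
Serpina3f held the STAT letters TTCCTAGAA at 121 to 113 bases before its start, and Serpina3g held TTCCCAGAA at 33 to 25. Serpina3n did not hold them. The NF-κB pattern was read as GGCTTTTCC in Serpina3n, at 170 to 162, and as GGGGTTTCC in Serpina3g, at 84 to 76. Of all windows 7.02% held TTCNNNGAA and 4.93% held GGNNTTTCC on either strand, and no marked stretch overlapped another. Between Serpina3f and Serpina3g, 133 of 161 aligned bases were identical, with 178 gap positions, so the window starts are shifted against each other. A match of letters does not show that a factor binds there.

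The last tested clade A gene, Serpina12, encodes vaspin, an inhibitor of a kallikrein and a product of fat tissue. It was called in none of the 3 limma comparisons, with −0.17 for IL-1α and 0.29 for retinoic acid against untreated (adjusted p = 0.482 and 0.205). Retinoic acid against IL-1α gave 0.46 ± 0.17 (adjusted p = 0.0534). Both IL-1α arrays of batch 2 were undetected, at 4.93 and 4.99.

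**Figure D3:**
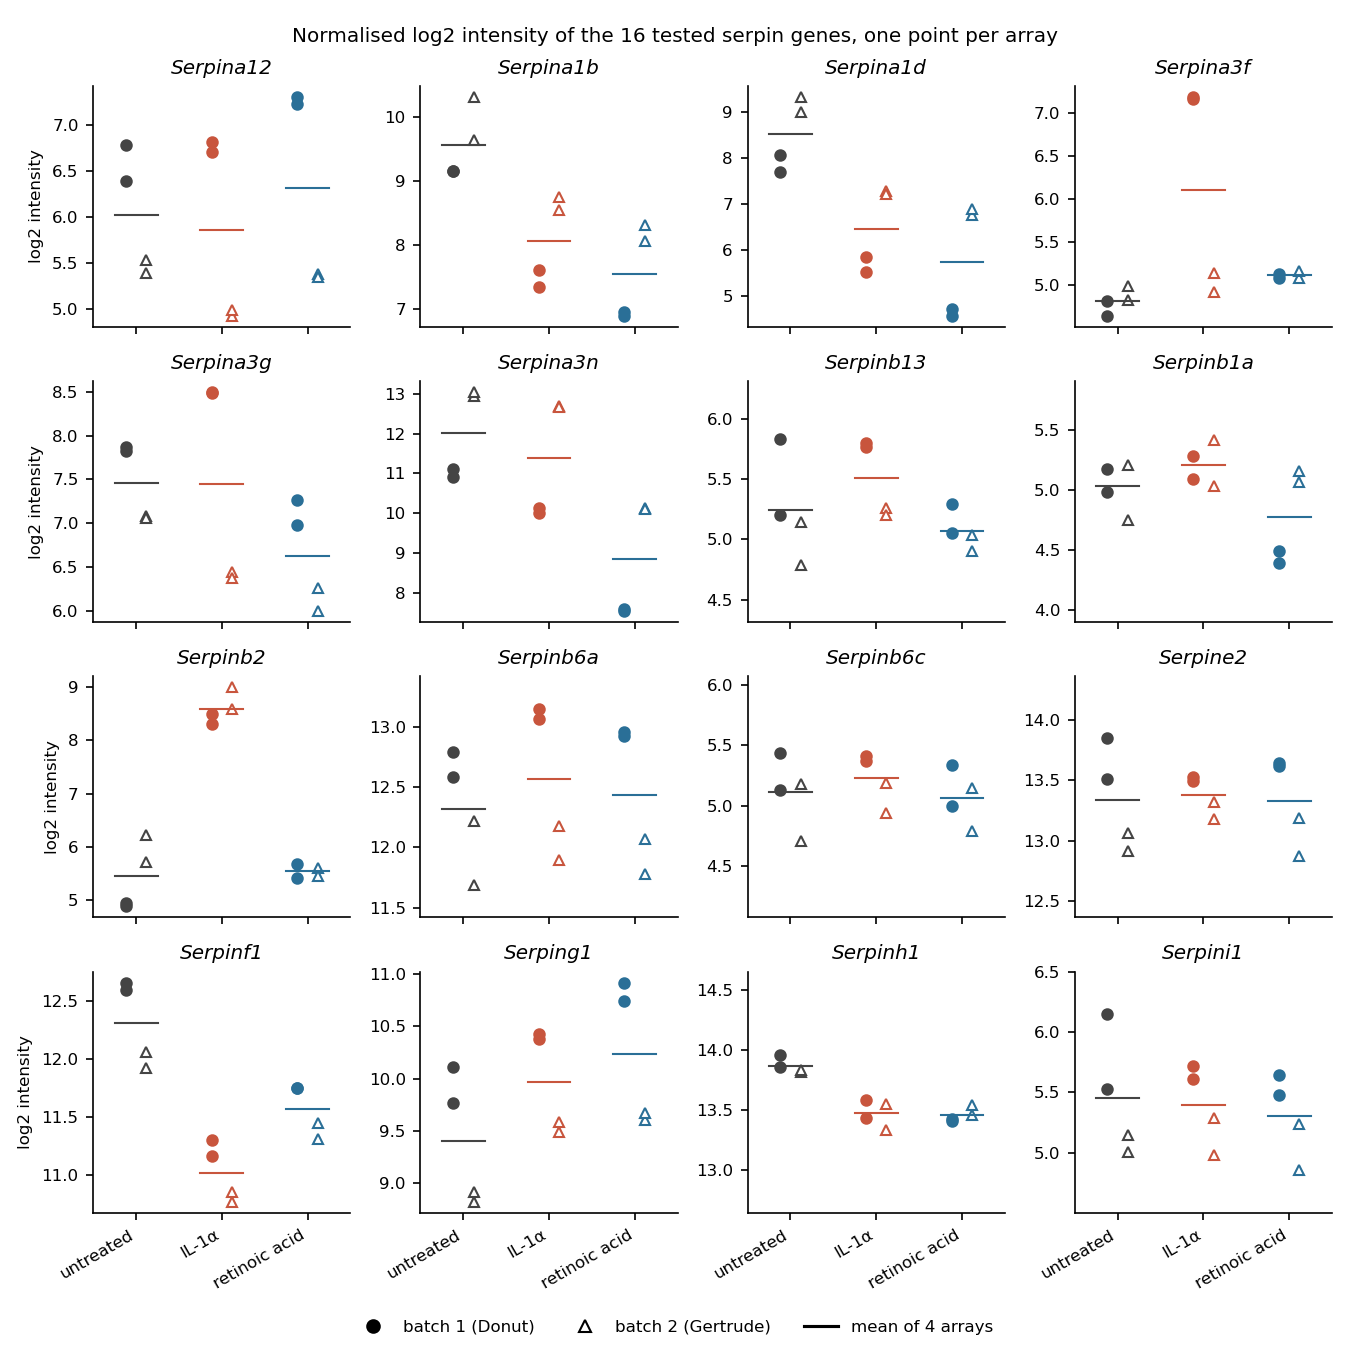
Normalised log2 intensity (y axis) of the 16 tested serpins by treatment (x axis), with 1 point per array, filled circles for batch 1, open triangles for batch 2 and a line at the mean of 4 arrays. Serpinb2 stands apart with IL-1α (8.32 to 8.99) and Serpina3n with retinoic acid (7.54 to 10.13), and the y axes differ between panels.

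Clade B held the largest rise. Serpinb2 encodes PAI-2, an inhibitor of urokinase that cells of the monocyte lineage, keratinocytes and fibroblasts induce in inflammation. On untreated arrays it was undetected in batch 1, at 4.88 and 4.96, and at 6.23 and 5.71 in batch 2. With IL-1α it was at 8.32 and 8.49 in batch 1 and 8.99 and 8.58 in batch 2. With retinoic acid it was at 5.68 and 5.42 in batch 1 and 5.60 and 5.46 in batch 2. All 4 IL-1α arrays lay above all 8 others.

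The IL-1α rise of Serpinb2 was 8.88-fold as fitted, a log2 difference of 3.15 ± 0.19 (adjusted p = 1.67e-07). Within batch 1, where untreated signal gives only a bound, it was at least 8.68-fold, and in batch 2 the difference was 2.82. Retinoic acid was 8.31-fold below IL-1α (−3.05 ± 0.19, adjusted p = 7.68e-08). Retinoic acid against untreated gave 0.10 ± 0.19 (adjusted p = 0.738), at least 1.20-fold higher in batch 1 and −0.44 in batch 2. The difference between batches was called at −1.08 as fitted (adjusted p = 0.0452), but the call was lost in 9 of 12 omissions of a single array and with an offset of 50. Macrophage marker sums were also higher with IL-1α than untreated in both batches, but of the 5 tested macrophage genes 2 were higher and 2 lower. Cd14 rose by 2.72 in batch 1 and 2.74 in batch 2, while Mrc1 gave −1.38 and −1.43. The part of these markers in the Serpinb2 rise was not tested.

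Serpinb2 lies between Serpinb7 and Serpinb10 in a chromosome 1 cluster, and neither neighbour was detected on any array. Its upstream sequence is shown as that of the gene with the largest rise, at chr1:107511173-107511422 on the plus strand, before the first of its listed starts. Capitals mark TGANTCA and TATAAA.
Serpinb2: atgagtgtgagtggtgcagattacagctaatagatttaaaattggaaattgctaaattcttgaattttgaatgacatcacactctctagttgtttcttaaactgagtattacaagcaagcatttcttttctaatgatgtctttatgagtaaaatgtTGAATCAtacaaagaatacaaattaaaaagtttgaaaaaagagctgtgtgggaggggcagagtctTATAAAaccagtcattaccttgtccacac
The AP-1 letters TGAATCA were at 94 to 88 bases before the start and TATAAA at 29 to 24. TATAAA in the direction of transcription was in 7.59% of all windows.

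Among the other clade B genes, Serpinb6a, an inhibitor of cathepsin G and of trypsin-like proteases, was detected on all 12 arrays. Its brightest probe lay between 11.69 and 13.15 and was not called for IL-1α (0.25 ± 0.14, adjusted p = 0.204) or retinoic acid (0.11 ± 0.14, adjusted p = 0.577). A dimmer probe differed. It was at 6.18 and 6.31 in batch 1 and 7.33 and 7.38 in batch 2 untreated, and at 7.78, 7.84, 7.77 and 7.92 with IL-1α, so that no arrays overlapped. That probe rose with IL-1α by 1.03 ± 0.18 (adjusted p = 0.00121), with 1.57 in batch 1 and 0.49 in batch 2, and was lower with retinoic acid than with IL-1α (−0.62 ± 0.18, adjusted p = 0.021). Its IL-1α response differed between batches by −1.07 (batch 2 minus batch 1, adjusted p = 0.00993). The probes of Serpinb6a therefore do not give the same call. A further probe, under the synonym Serpinb6, was undetected on all 12 arrays.

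Serpinb13, an inhibitor of lysosomal cysteine cathepsins, was detected on all 4 IL-1α arrays (5.20 to 5.80), on 2 untreated arrays and on 1 retinoic acid array. Retinoic acid was below IL-1α by −0.44 ± 0.15 (adjusted p = 0.0465), and this call was lost under 16 of 22 alternatives, among them the omission of any 1 of 8 arrays. Serpinb1a, an inhibitor of neutrophil elastase and cathepsin G, was detected on 5 arrays and Serpinb6c on 4, and neither was called in the 3 comparisons. Their log2 differences lay between −0.43 and 0.18.

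Serpine2 of clade E did not pass the test in any of the 3 comparisons. It encodes protease nexin-1, which inhibits thrombin, urokinase and tissue plasminogen activator. Untreated arrays gave 13.85 and 13.51 in batch 1 and 12.91 and 13.06 in batch 2, IL-1α arrays 13.53, 13.50, 13.18 and 13.32, and retinoic acid arrays 13.62, 13.64, 12.88 and 13.19. The treatments overlapped. Differences from untreated were 0.05 ± 0.13 with IL-1α (adjusted p = 0.817) and −0.0030 ± 0.13 with retinoic acid (adjusted p = 0.988), and a second probe was not called either. For retinoic acid against IL-1α that second probe gave 0.60 in batch 1 and −0.41 in batch 2, a called difference between batches of −1.01 (adjusted p = 0.00866). The highest normalised value on any array was 14.24. Sizes of changes for such bright probes may not be exact, which was not tested.

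Partners of these serpins in plasminogen activation were measured with a list of 12 genes, of which 8 were tested. With retinoic acid 3 were called, all higher, against 18.6% of all genes. With IL-1α 2 were higher and 2 lower, against 15.1% and 15%. Plat, tissue plasminogen activator, rose with retinoic acid by 0.96 (adjusted p = 9.98e-04), fell by 0.85 with IL-1α (adjusted p = 0.00342) and differed by 1.81 between retinoic acid and IL-1α (adjusted p = 4.90e-06). Plaur, the urokinase receptor, was higher with both, by 0.46 and 0.70. Plau, urokinase itself, was not called in any of the 3 comparisons by limma, with −0.41 for IL-1α (adjusted p = 0.238). That value was made of 0.30 in batch 1 and −1.12 in batch 2. The median of the tested genes was 0.09 with retinoic acid and −0.22 with IL-1α, against 0.01 for all genes in each.

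Of 19 thrombin pathway genes 8 were tested. With retinoic acid 2 were higher and 3 lower, against 18.6% and 18.1% of all genes. The 4 called with IL-1α were lower, against 15% of all genes. Pros1, the anticoagulant protein S, was 0.44 higher with retinoic acid, 0.73 lower with IL-1α and 1.17 higher between them (adjusted p = 6.14e-06). F5, coagulation factor V, fell with both treatments by 0.94 and 1.16. The medians were −0.13 and −0.57, against 0.01 for all genes in each comparison.

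Serpinf1 encodes PEDF, a secreted serpin without inhibitory activity that is known to suppress vessel growth and is abundant in cartilage and bone. Untreated arrays were at 12.59 and 12.65 in batch 1 and 12.06 and 11.92 in batch 2. IL-1α arrays were the lowest, at 11.16 and 11.30 in batch 1 and 10.77 and 10.85 in batch 2. Retinoic acid arrays were at 11.75 in both replicates of batch 1 and at 11.44 and 11.31 in batch 2. The 3 treatments did not overlap.

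IL-1α lowered Serpinf1 2.44-fold, a log2 difference of −1.29 ± 0.11 (adjusted p = 3.85e-06), and retinoic acid 1.67-fold, at −0.74 ± 0.11 (adjusted p = 2.02e-04). Retinoic acid was above IL-1α by 0.55 ± 0.11 (adjusted p = 0.00231). A second Serpinf1 probe was detected on 4 arrays only and was not called. All 4 tested osteoblast markers also fell with both treatments, and their part in the fall of Serpinf1 was not tested. Serpinf2, the gene of the plasmin inhibitor α2-antiplasmin, lies near Serpinf1 and was detected on 2 arrays, both with IL-1α.

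Serping1 rose with both treatments. It encodes the C1 inhibitor, which blocks the C1r and C1s proteases of the classical complement pathway and also plasma kallikrein. Untreated arrays gave 9.77 and 10.11 in batch 1 and 8.92 and 8.82 in batch 2. IL-1α arrays gave 10.38 and 10.43, then 9.59 and 9.49, and retinoic acid arrays gave 10.74 and 10.92, then 9.60 and 9.68. Within each batch all treated arrays were above the untreated ones, while across batches they overlapped.

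The difference of Serping1 from untreated was 0.83 ± 0.12 with retinoic acid (1.77-fold, adjusted p = 1.14e-04) and 0.56 ± 0.12 with IL-1α (1.48-fold, adjusted p = 0.00314). Within batches it was 0.89 and 0.77 with retinoic acid and 0.46 and 0.67 with IL-1α.

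Targets of Serping1 and the recognition subunits that carry them were followed in a list of 11 names, 9 of them on the array and 6 tested. With retinoic acid 3 were higher and 3 lower, against 18.6% and 18.1% of all genes. With IL-1α 1 was higher and 3 lower, against 15.1% and 15%. C1qa, C1qb and C1qc, which form the recognition part of C1 and are made largely by macrophages, rose with retinoic acid, by 1.25, 1.51 and 1.20, and fell with IL-1α, with differences of −1.49, −1.82 and −2.08. C1s, the target protease, rose by 1.02 with IL-1α (adjusted p = 0.0012) and was called lower with retinoic acid (adjusted p = 0.00411). With retinoic acid both batch 1 arrays were not above background, so the fall there was at least 1.11-fold, and the log2 difference in batch 2 was −1.29.

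Serpinh1 encodes HSP47, a collagen chaperone of the endoplasmic reticulum that has no protease target. Untreated arrays were at 13.86, 13.96, 13.81 and 13.83, IL-1α arrays at 13.59, 13.43, 13.55 and 13.34, and retinoic acid arrays at 13.41, 13.43, 13.54 and 13.46. All 8 treated arrays were below all 4 untreated ones. The differences were small, at −0.41 ± 0.11 with retinoic acid (1.32-fold lower, adjusted p = 0.0119) and −0.39 ± 0.11 with IL-1α (1.31-fold lower, adjusted p = 0.019). The probe lies near the highest normalised value, where the size of a change may not be exact. Without retinoic acid replicate 1 (−0.36) or untreated replicate 2 (−0.34) of batch 1 the first call was lost. The second was lost without untreated replicate 2 (−0.32) or IL-1α replicate 2 (−0.36) of batch 1, without IL-1α replicate 2 of batch 2 (−0.35) and with median scaling.

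The collagen-folding genes that work beside HSP47 fell as well. Of 16 on the list 15 were tested, 14 were called with retinoic acid, all lower, with a median of −0.95, and 10 with IL-1α, all lower, with a median of −0.42. Of all genes 18.1% and 15% were called lower, and their median was 0.01 in each comparison. P3h2, a prolyl 3-hydroxylase, fell by 2.71 with retinoic acid and by 0.65 with IL-1α. Sparc, a collagen-binding protein, fell by 2.01 with retinoic acid and was called lower with IL-1α as well. Plod2, a lysyl hydroxylase, fell by 1.61 with retinoic acid and had a difference of −0.43 with IL-1α (adjusted p = 0.0538). Crtap, the partner of P3h1, fell by 1.40 and 0.51. Plod1 was the tested gene not called with retinoic acid, at 0.22 (adjusted p = 0.151). The chondrocyte sum was lower on the same arrays, and its part was not tested.

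**Figure D4:**
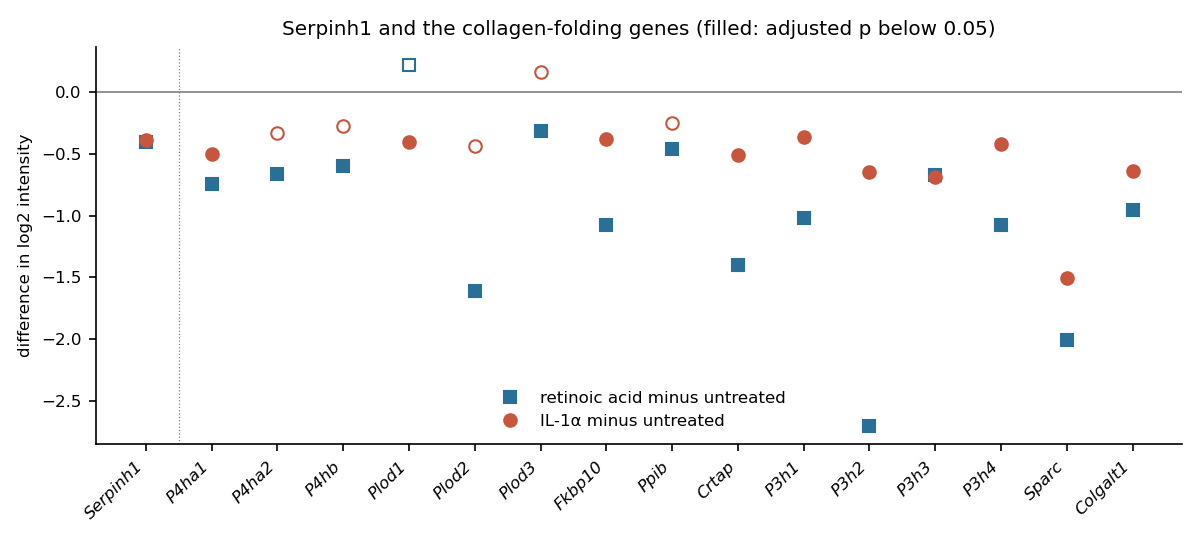
Difference in log2 intensity from untreated explants (y axis) for Serpinh1 and the 15 tested collagen-folding genes (x axis), with squares for retinoic acid and circles for IL-1α, filled where the adjusted p is under 0.05. Of the 15 genes 14 were called lower with retinoic acid and 10 with IL-1α.

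Serpini1, neuroserpin, an inhibitor of tissue plasminogen activator known mainly from neurons, was detected on 10 arrays between 4.85 and 6.15. It was called in none of the 3 limma comparisons, with −0.15 for retinoic acid and −0.06 for IL-1α against untreated (adjusted p = 0.412 and 0.787).

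Among leukocyte serine proteases, the targets of clades A and B, 3 of 13 were tested and Gzmb, Gzmk, Cma1, Mcpt4 and Tpsab1 were undetected. With retinoic acid 0 were called higher and 1 lower, with a median of 0.31, against 18.6% and 18.1% of all genes. With IL-1α 1 was higher and 0 lower, against 15.1% and 15%. Prtn3 gave −0.84 in batch 1 and 1.56 in batch 2 with retinoic acid. The gene called lower was Ctsg, cathepsin G and a product of neutrophil precursors and mast cells (limma adjusted p = 3.56e-04). The fall was at least 12-fold in batch 1, where both treated arrays were not above background, with a log2 difference of −1.13 in batch 2. The neutrophil sums given above were also lower with retinoic acid in batch 1 but not in batch 2, and their part was not tested. Among inhibitors that are not serpins, 9 of 20 were tested, with 6 higher and 2 lower with retinoic acid and 4 higher and 3 lower with IL-1α. Across all tested genes 18.6% were higher and 18.1% lower with retinoic acid, and 15.1% and 15% with IL-1α. Slpi, a secreted inhibitor of neutrophil elastase, fell by 2.41 with retinoic acid (adjusted p = 5.61e-05), rose by 2.54 with IL-1α (adjusted p = 7.03e-05) and differed by −4.95 between them, retinoic acid minus IL-1α. Itih2, of the inter-α-trypsin inhibitor family, rose by 1.60 with retinoic acid. It was lower with IL-1α, at least 2.22-fold in batch 1, where both IL-1α arrays were not above background, with a log2 difference of −1.65 in batch 2. Wfdc1, from the same list, was higher with retinoic acid than untreated, by 2.17 in batch 1 and 1.89 in batch 2.

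Between the batches 14 of the 16 serpins differed, with 4 higher and 10 lower in batch 2, against 76.1% of all genes, 29.7% higher and 46.3% lower. Serpina3n was 2.39 ± 0.11 higher in batch 2 (adjusted p = 2.56e-11), Serpina1d 1.68 ± 0.14 and Serpina1b 1.09 ± 0.12 higher, and Serpina12 lower, at −1.61 ± 0.13 (adjusted p = 1.24e-08). Calls between batches depended on the scaling. With median scaling 8 serpins were called, 5 higher and 3 lower, and the median of all genes moved from −0.20 to 0.46. The share of all genes called with that scaling was not computed. Serpina3n, Serpina1b, Serpina1d and Serpinb2 were higher and Serpina12, Serpinb6a and Serping1 lower under both scalings. Mouse line, batch and any difference in tissue taken cannot be told apart here.

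With each gene read by its brightest probe, the responses themselves differed between batches for 1 serpin with retinoic acid against untreated, Serpinb2, and for 2 with IL-1α, Serpina3f and Serpina3g. Of all genes 2.7% and 4.57% did. For retinoic acid against IL-1α the same pair, Serpina3f and Serpina3g, was called, against 8.91% of all genes. Probe sequences were not used, so whether these neighbouring genes count as independent results is uncertain. Of the 5 other tested serpin probes, the dimmer Serpinb6a probe was called with IL-1α against untreated and the second Serpine2 probe for retinoic acid against IL-1α. With 2 arrays per treatment and batch, a difference of responses that was not called may still exist.

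**Figure D5:**
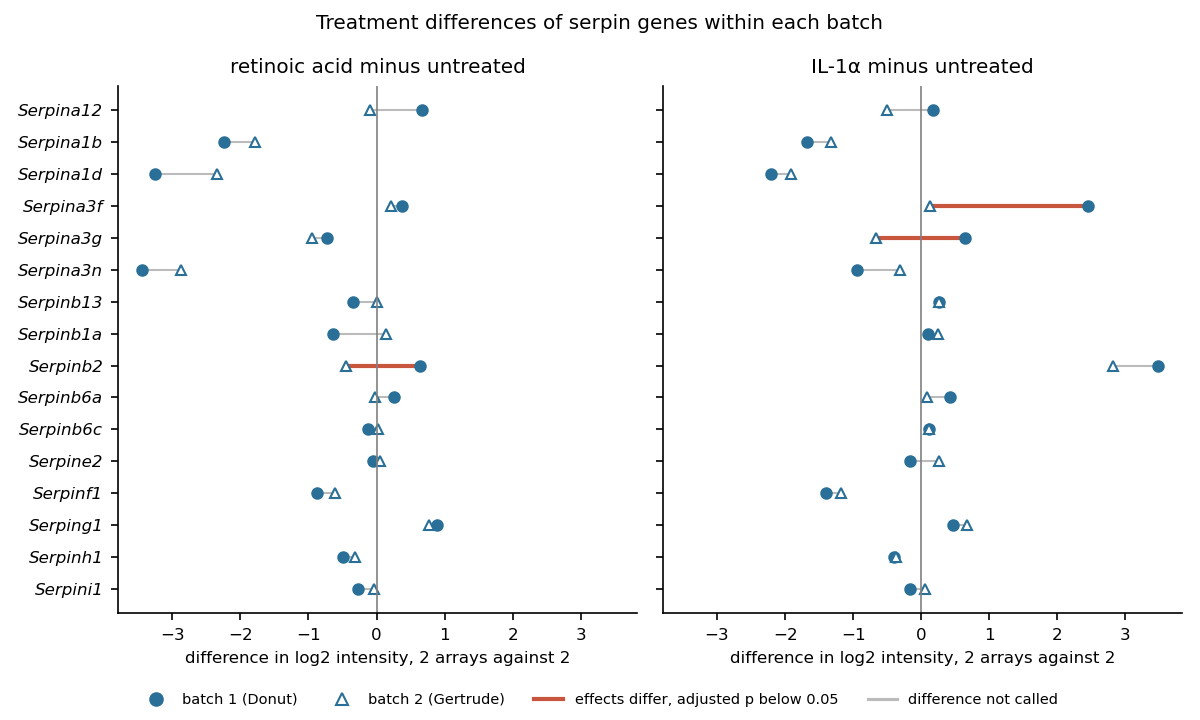
Difference in log2 intensity from untreated explants (x axis, mean of 2 arrays against 2) within each batch for the 16 tested serpins (y axis), with circles for batch 1 and triangles for batch 2. Thick lines join values whose difference was called. With retinoic acid this was Serpinb2 (0.63, from an untreated signal not above background, and −0.44). With IL-1α these were Serpina3f (2.44 and 0.12, both from untreated signals not above background) and Serpina3g (0.65 and −0.66).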

How the data were processed

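RNA of explants was hybridised to 12 mouse bead arrays. The authors deposited linear intensities per probe that had been neither background-corrected nor normalised, with a detection score beside each, and the detection p was taken as 1 minus that score. The bead summary software is not given in the sources used here. With neqc of limma 3.58.1 in R 4.3.3, the values were background-corrected, quantile normalised and put on the log2 scale with an offset of 16. A probe entered the tests when its detection p was below 0.05 on 4 or more of 12 arrays, leaving 18200 probes for 14317 genes. Following the study's methods, limma fitted treatment together with batch and replicate as a single factor of 4 levels, and p-values were adjusted over all kept probes by Benjamini-Hochberg at 0.05. Whether responses differed between batches was tested with treatment by batch terms, and batches were compared in a model holding treatment and batch. A gene was given by its brightest kept probe. Same-numbered arrays of a batch deviated with correlations between −0.11 and 0.39. A signal not above background on all arrays of a group was treated as a bound, raised to the lowest detected signal of the array. Summed marker intensities are normalised values on the linear scale. Values in each array are given for members called above 2-fold and for the α1-antitrypsin genes, Serpina3n, Serpine2, Serpinf1, Serping1 and Serpinh1, and for other genes chosen after their values were seen. Of pathway genes changed above 2-fold at most 4 to a list are named, beside a few chosen for their role. Not every gene changed above 2-fold is named. The members and lists were chosen with earlier results of these data known. The values of 1 member are not reported here. The scripts were tested on simulated data. Of 56 symbols 54 are current in RefSeq GRCm38.p6. The number of arrays limits the precision of every difference.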

Additional observations from a re-analysis of the deposited data

Results flagged for a closer look

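By a limma test of the difference itself, the responses of 3 serpins differed between the batches at their brightest probes, and 2 other probes did as well. Serpinb2 with retinoic acid against untreated differed by −1.08 (batch 2 minus batch 1, adjusted p = 0.0452). Its untreated signal in batch 1 was not above background, and the call was lost in 9 of 12 omissions of a single array. Serpina3f differed by −2.32 with IL-1α against untreated (adjusted p = 1.57e-05) and by 2.16 for retinoic acid against IL-1α (adjusted p = 1.75e-05). Its untreated signal was not above background in either batch. Serpina3g differed by −1.31 (adjusted p = 0.00347) and by 1.09 (adjusted p = 0.0053) in the same comparisons. Both pairs of values share the IL-1α arrays. The dimmer Serpinb6a probe differed by −1.07 with IL-1α against untreated (adjusted p = 0.00993), and the second Serpine2 probe by −1.01 for retinoic acid against IL-1α (adjusted p = 0.00866).

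Serpind1, the heparin cofactor II gene, was left out of the tests because it was detected on 3 arrays, both retinoic acid arrays of batch 2 and IL-1α replicate 2 of batch 2, and on 0 untreated arrays. Serpinf2 was detected on 2 arrays, IL-1α replicate 2 of each batch, and on 0 untreated arrays.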

How the results depend on the processing

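Of the serpin values recomputed under the alternatives, 1260 kept their side of the threshold. These include values that changed sign without a call before or after. Another 84 lost the call, 25 gained one and 3 changed sign with a call before or after. Counts of called serpins moved by over 1.5 times as follows. With median scaling there were 3 for retinoic acid against IL-1α, 0 for a difference between batches in the response to retinoic acid and 8 between batches, where the median of all genes was 0.06, 0.02 and 0.46. That median was also 0.13 for retinoic acid against untreated, and −0.33 and 0.34 for the batch differences in IL-1α against untreated and in retinoic acid against IL-1α. An offset of 50 gave 0 for the batch difference with retinoic acid. No filter gave 4 for retinoic acid against IL-1α. Detection on all 12 arrays, which leaves fewer genes to test, gave 5 for IL-1α, 4 for retinoic acid against IL-1α, 0, 1 and 1 for the batch differences and 7 between batches. A detection p of 0.01 gave 1 for each batch difference that involves IL-1α. Without batch or replicate in the model 4, 2 and 1 were called for retinoic acid, IL-1α and retinoic acid against IL-1α. A fold above 1.5 gave 4 for retinoic acid against IL-1α and 9 between batches. Chosen after seeing the data, batch 1 alone gave 11 for retinoic acid and batch 2 alone 3 for retinoic acid against IL-1α. The cause of these shifts was not tested. Shares of all genes called were not computed under the alternatives, so the counts cannot be set against them.

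Serpinf1 and Serpinb6c reversed between batches with median scaling (0.051 and 0.021), and Serpina3g with IL-1α reversed in batch 1 alone (0.65). Leaving out 1 array gave 6 to 7 for retinoic acid, 6 to 9 for IL-1α, 4 to 9 for retinoic acid against IL-1α, 0 to 3, 2 to 4 and 2 to 2 for the batch differences and 12 to 14 between batches. The 4 came without retinoic acid replicate 2 of batch 1, and the 3 and the highest 4 without untreated replicate 2 of batch 2, the array with the most detected probes (19485). The call of Serpina1b for retinoic acid against IL-1α was lost without retinoic acid replicates 1 (−0.43) and 2 (−0.49) or IL-1α replicate 1 (−0.48) of batch 1, and without retinoic acid replicate 1 (−0.47) or IL-1α replicate 2 (−0.42) of batch 2. Without the replicate block, with batch only, 7, 8 and 9 serpins were called for retinoic acid, IL-1α and retinoic acid against IL-1α. Against untreated these were the same genes as with the block, and between the treatments Serpina12 and Serpina3f were added.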
